A study of Arabidopsis thaliana with 12 samples.

Results

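The TIR1/AFB auxin receptor genes of Arabidopsis thaliana are the 6 genes TIR1 (AT3G62980), AFB1 (AT4G03190), AFB2 (AT3G26810), AFB3 (AT1G12820), AFB4 (AT4G24390) and AFB5 (AT5G49980). They were chosen by gene identifier, and all 6 were found among the 30926 genes of the deposited count table. What was counted is small RNA, from an RNA fraction under 200 nt, so a value below is the number of small RNA reads assigned to a receptor gene and not the amount of its mRNA. The aerial tissue of 18-day-old plants was sampled in 4 genotypes with 3 libraries each. Col-0 is the wild type. The ein5-1 ski2-3 double mutant carries mutations in EIN5, the cytoplasmic exonuclease that degrades RNA from its 5′ end, and in SKI2, the helicase that serves the exosome at the 3′ end. The rdr6-11 mutant is defective in RDR6, the RNA-dependent RNA polymerase that makes the double-stranded precursors of secondary siRNAs, and rdr6-11 ein5-1 ski2-3 is the triple mutant. Each genotype is represented by a single line, and the labels do not say how many plants went into a library.

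TIR1/AFB proteins are the F-box subunits of SCF ubiquitin ligases. Auxin binds in a pocket between the receptor and an Aux/IAA repressor, the repressor is then ubiquitinated and degraded, and the ARF transcription factors it held back become active. The microRNA miR393 cleaves receptor transcripts, and in Arabidopsis the cleaved transcripts are known to give rise to secondary siRNAs that need RDR6.

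Both MIR393 genes encode the same mature 5p strand, so small RNA of this strand cannot be assigned to MIR393A or MIR393B by sequence. The strand is shown because its pairing divides the 6 receptors, with the seed (bases 2 to 8 from the 5′ end) in capitals.
miR393a-5p: uCCAAAGGgaucgcauugaucc
miR393b-5p: uCCAAAGGgaucgcauugaucc
Its perfect complement and the windows at the same place in the coding sequences are given next, 5′ to 3′ on the mRNA strand, with capitals at each base that differs from the perfect complement.
perfect complement: ggatcaatgcgatccctttgga
AFB2: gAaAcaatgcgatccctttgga
AFB3: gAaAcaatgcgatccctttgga
TIR1: gAGAcaatgcgatccctttgga
AFB1: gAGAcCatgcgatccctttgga
AFB5: TACAACatgAgGtTTGtttgga
AFB4: TCCAATatgAgGtTTGtttggT
All sequences were read from the RefSeq genome TAIR10.1.

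AFB2 and AFB3 have the same window. Counting from 1 at the window's 5′ end, they differ from the complement by G2A and T4A. TIR1 has A3G as well, which leaves a G:U pair with the microRNA, and AFB1 has these changes plus A6C. With a penalty of 1 for a mismatch and 0.5 for a G:U pair, the windows of AFB2 and AFB3 scored 2, that of TIR1 2.5 and that of AFB1 3.5. Among 27556 genes with an mRNA, AFB2 and AFB3 were the only 2 that scored 2 or less, TIR1 was the only further gene at 2.5, and 6 genes scored 3.5 or less. In AFB4 and AFB5 the aligned windows held 12 and 11 differences and scored 10.5 and 9.5. Their best windows elsewhere scored 6.5 and 7, scores that 1870 and 4483 genes reached. A match of letters is a description and not a site shown to be cut.

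The windows lie in the last exon of the 4 paired genes, inside the coding sequence. The AFB2 window is chr3:9870237-9870258 on the plus strand, in exon 3 of 3. The other windows are on the minus strand. That of AFB3 is chr1:4369085-4369106, in exon 4 of 4, that of TIR1 is chr3:23273727-23273748, in exon 3 of 3, and that of AFB1 is chr4:1405341-1405362, in exon 3 of 3. They start at coding base 1501 in AFB2, 1507 in AFB3, 1516 in TIR1 and 1504 in AFB1, so all of them sit near the same point of the coding sequence.

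**Figure D1:**
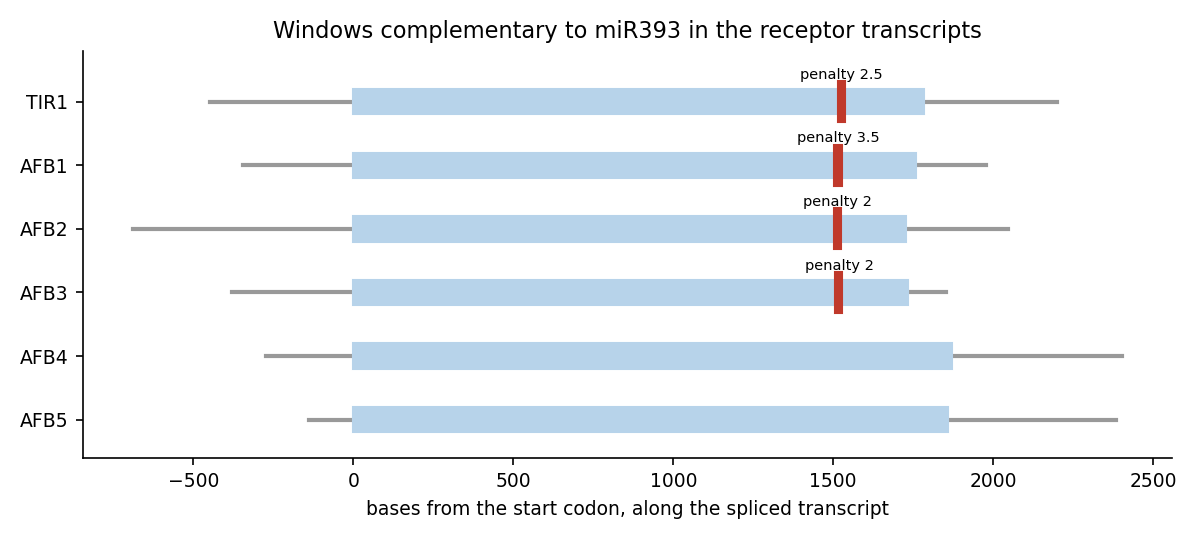
The 6 receptor transcripts are drawn to scale along bases from the start codon, with the coding sequence as a box and the untranslated ends as lines. The bars mark the windows with a penalty of 3.5 or less, which TIR1, AFB1, AFB2 and AFB3 have from coding base 1501 to 1516, and AFB4 and AFB5 have none.

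The receptors fall into pairs of close relatives, AFB2 with AFB3, AFB4 with AFB5 and TIR1 with AFB1. Their coding sequences are identical at 82.1%, 81.4% and 69.9% of aligned bases in these pairs, and at 59.0% to 66.9% in the others. Reads of small RNA length could still be told apart in most places. Of the stretches of 21 bases in the exons, 31 of 2676 in AFB2, 28 of 2154 in AFB3 and 6 of 2588 in TIR1 also occur in another receptor. AFB4 and AFB5 share 47 such stretches and AFB1 shares none. The handling of reads that match in several places is not given in the sources used here.

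Total counts lay between 2358724 and 2909767 per library, and the 6 receptor genes together held 31 to 280 of them. In ein5-1 ski2-3 the first and second library agree within sampling noise over protein-coding genes (over all genes the mean chi-square was 1.05 over 11039 genes, against 3.47 and 3.44 for replicate 3 with either of them). They were counted as 1 sample, so that n is 2 for this genotype and 3 for the others. Col-0 replicates 2 and 3 also agreed over protein-coding genes (chi-square p = 0.151). Their mean chi-square over all genes was 1.35, and they were kept apart. Over all genes, pairs within the other 3 genotypes had 1.19 to 2.00, so ein5-1 ski2-3 replicate 3 also stood further off than any of those pairs. No library held more than 7 counts of EIN5, SKI2 or RDR6, too few to check the genotype labels. The leaf markers RBCS1A, CAB1 and RCA had 231 to 1016 counts each in every library. With TMM scaling all 3 were called lower in the double mutant than in Col-0 (log2 changes of -1.07 to -0.44) and in rdr6-11 than in Col-0 (-0.67 to -0.58), and higher in the triple mutant than in the double (0.29 to 0.96). With total counts CAB1 turned to 0.37 in the first of these comparisons and to -0.14 in the last, none of the 3 was called in rdr6-11, and CAB1 was 0.06 in the first when scaled to MIR genes. The part of these leaf marker changes in the receptor results was not tested. The root phosphate transporter gene PHT1;1 had at most 2. SCR and SHR, transcription factor genes of the root endodermis that are also active in leaves, were higher in the double mutant than in Col-0. The summed counts of these 3 root markers were 33 to 47 per library there, 2 or 3 in Col-0, 5 or 6 in rdr6-11 and, with all 3 mutations, 15 to 21, and the part of this difference in the receptor results was not tested.

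TIR1, AFB2, AFB3 and AFB5 passed the filter on low counts and were tested, while AFB1 and AFB4 did not pass. The filter asked for 3.68 CPM (counts scaled to library size) in at least 2 of the 11 samples. AFB3 passed it through the double mutant alone. The filter thus favoured AFB3 in the double mutant against Col-0, in the triple mutant against the double, and in the interaction. AFB4 reached at most 3.73 CPM, just above the limit but in 1 sample only, and AFB1 at most 2.16. Tests are quasi-likelihood F tests of edgeR over 7219 genes with Benjamini-Hochberg adjustment, and a gene is called at an adjusted p under 0.05. Levels below are CPM after TMM scaling, and an SD is over samples.

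Small RNA from the receptor genes best paired with miR393 was higher in the mutant of both decay routes than in wild type. In ein5-1 ski2-3 against Col-0, AFB2, AFB3 and TIR1 were each called higher, by 6.16-fold, 4.36-fold and 3.65-fold, and AFB5 was not called. That is 3 of 4 tested receptors, with AFB3 favoured by the filter. Among all genes tested 30.5% were called higher, and among protein-coding genes 31.3%. In bulk tissue, fewer cells of a type and less RNA per cell cannot be told apart.

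AFB2, a receptor that acts with TIR1 in most auxin responses, had 18, 6 and 12 counts in Col-0 and 139, 147 and 123 in the double mutant. Every double-mutant library was far above every Col-0 library. The AFB2 level was 5.85 ± 2.68 CPM (SD, n = 3) in Col-0 and 36.4 ± 4.73 CPM (SD, n = 2) in the double mutant, with a log2 change of 2.62 ± 0.23 (SE, edgeR adjusted p = 2.73e-14).

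AFB3, the closest relative of AFB2 and known as a receptor in the nitrate response of roots, had 7, 5 and 9 counts in Col-0 and 60, 55 and 53 in the double mutant. The groups did not overlap. The AFB3 means of 3.44 ± 0.749 CPM (SD, n = 3) and 15.1 ± 1.23 CPM (SD, n = 2) gave a log2 change of 2.12 ± 0.29 (SE, edgeR adjusted p = 1.74e-08).

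TIR1, the founding receptor of the family, had 4, 8 and 7 counts in Col-0 and 44, 48 and 36 in the double mutant, again without overlap. TIR1 was 3.20 ± 1.23 CPM (SD, n = 3) in Col-0 and 11.2 ± 2.20 CPM (SD, n = 2) in the double mutant, with a log2 change of 1.87 ± 0.33 (SE, edgeR adjusted p = 4.07e-06). The calls of AFB2, AFB3 and TIR1 held under all 22 alternatives, with log2 changes of 2.25 to 3.43, 1.81 to 2.93 and 1.39 to 2.68.

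AFB5, which with AFB4 is known for sensing picolinate auxins such as picloram, had 10, 7 and 11 counts in Col-0 and 21, 14 and 14 in the double mutant. Raw counts of AFB5 were thus higher in every double-mutant library, but TMM-normalised levels overlapped. AFB5 stood at 4.60 ± 0.689 CPM (SD, n = 3) in Col-0 and 4.31 ± 0.779 CPM (SD, n = 2) in the double mutant, a log2 change of -0.05 with a 95% interval of -0.73 to 0.62. The direction for AFB5 depends on the scaling. With library sizes taken as total counts its log2 change was 0.76 (edgeR adjusted p = 0.0412). The median log2 change of all genes was 0.29 with TMM and 1.10 with total counts, so AFB5 was below the median gene under both.

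The low-count receptors AFB1 and AFB4 were not tested. AFB4 had 2 counts in each Col-0 library and 11, 8 and 10 in the double mutant, which did not overlap. Without the filter AFB4 had a log2 change of 1.48 ± 0.61 (SE) that missed the threshold (edgeR adjusted p = 0.102 over 29938 genes). AFB1, whose product localises mainly to the cytoplasm and is known for the fast auxin response of roots, had 1, 3 and 4 counts in Col-0 and 5, 6 and 2 in the double mutant, and these overlapped. Its summed level was 1.32 CPM in Col-0 (95% Poisson counting interval 0.572 to 2.61) and 1.19 CPM in the double mutant (0.634 to 2.04). At this depth no difference in AFB1 was detectable.

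In the authors' deposited table the folds of the double mutant over Col-0 are 6.22 for AFB2 (adjusted p = 7.65e-18), 4.33 for AFB3 (3.79e-06) and 3.54 for TIR1 (0.000196). The same authors' deposited table gives folds of 2.57 for AFB4 (adjusted p = 0.560), 0.948 for AFB5 (1) and 0.864 for AFB1 (1).

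**Figure D2:**
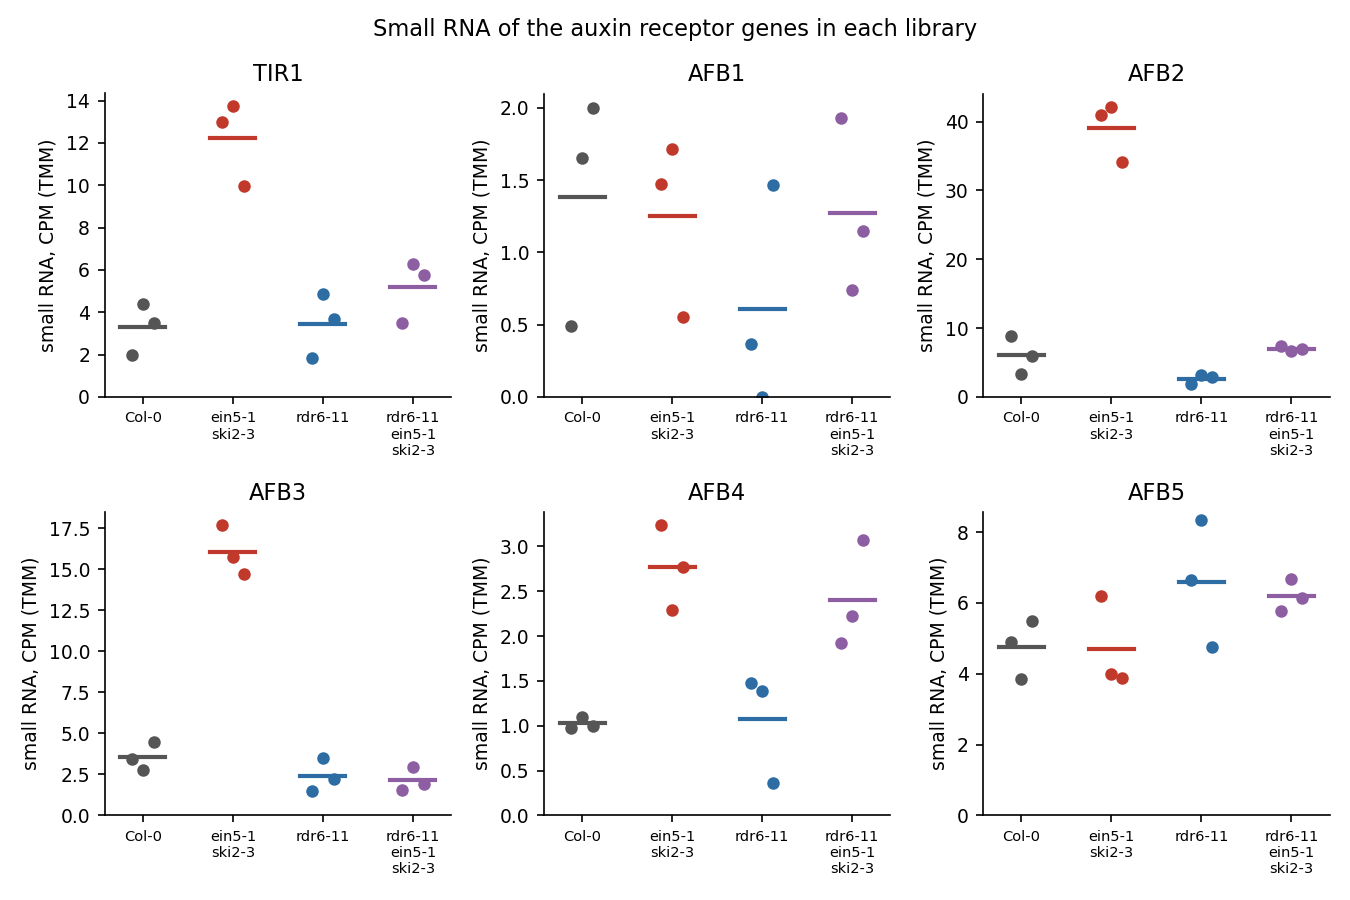
Small RNA of each receptor gene is plotted as TMM-normalised CPM computed over the 12 libraries, by genotype; points are libraries and lines are means over 3 libraries. AFB2, AFB3 and TIR1 in ein5-1 ski2-3 lie above all other libraries, whereas AFB5 overlaps between ein5-1 ski2-3 and Col-0.

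The same 3 receptors had much less small RNA when the decay mutant also lacked RDR6 function. AFB3, AFB2 and TIR1 were called lower in the triple mutant than in ein5-1 ski2-3, by 7.11-fold, 5.36-fold and 2.26-fold, and AFB5 was not called. This is 3 of 4 tested receptors, with AFB3 favoured by the filter. Of all genes tested 27% were called lower, and of protein-coding genes 25.6%.

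AFB3 had 4, 8 and 5 counts in the triple mutant, far below the 53 to 60 of the double mutant. Its level of 2.11 ± 0.742 CPM (SD, n = 3) corresponded to a log2 change of -2.83 ± 0.30 (SE, edgeR adjusted p = 2.97e-11). AFB2 had 19, 18 and 18 counts, and its level of 6.85 ± 0.311 CPM (SD, n = 3) to a log2 change of -2.42 ± 0.20 (SE, edgeR adjusted p = 1.83e-14). The 3 triple-mutant libraries were nearly equal for AFB2 and all below the double mutant.

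TIR1 had 9, 17 and 15 counts in the triple mutant, also below the 36 to 48 of the double mutant. Its level was 5.09 ± 1.49 CPM (SD, n = 3), a log2 change of -1.18 ± 0.27 (SE, edgeR adjusted p = 0.000401). The TIR1 call was lost with DESeq2 (log2 change -1.03, adjusted p = 0.0701) and without the sample that joins ein5-1 ski2-3 replicates 1 and 2 (log2 change -0.73, edgeR adjusted p = 0.136), where the lone remaining sample is assumed to vary like the other groups. AFB5 had 15, 18 and 16 counts and 6.09 ± 0.477 CPM (SD, n = 3), a log2 change of 0.45 with a 95% interval of -0.14 to 1.03. AFB4 had 5, 6 and 8 counts and AFB1 5, 2 and 3, both overlapping the double mutant. In the authors' deposited table the folds of the double over the triple mutant are 7.13 for AFB3, 5.34 for AFB2, 2.25 for TIR1, 1.10 for AFB4, 0.934 for AFB1 and 0.722 for AFB5. Both sets of folds share the double mutant libraries.

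In otherwise wild-type plants the receptors carried little small RNA with or without RDR6. In rdr6-11 against Col-0 only AFB2 was called, lower by 2.30-fold. This is 1 of 4 tested receptors, against 15.3% of all genes and 11.8% of protein-coding genes called lower.

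AFB2 had 5, 9 and 8 counts in rdr6-11, or 2.56 ± 0.677 CPM (SD, n = 3), a log2 change of -1.20 ± 0.38 (SE, edgeR adjusted p = 0.00984). On the raw scale Col-0 replicate 2, with 6 counts, overlapped rdr6-11, and after TMM normalisation the libraries did not overlap. The AFB2 call was lost without Col-0 replicate 1 (log2 change -0.82, edgeR adjusted p = 0.172), without rdr6-11 replicate 1 (-0.99, adjusted p = 0.0565), with total counts (-0.74, adjusted p = 0.145) and without the filter (-1.08, adjusted p = 0.0631).

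AFB3 had 4, 10 and 6 counts in rdr6-11, with a log2 change of -0.57 and a 95% interval of -1.44 to 0.30. TIR1 had 5, 14 and 10 counts, with a log2 change of 0.10 and an interval of -0.76 to 0.97. AFB5 had 18, 24 and 13 counts, with a log2 change of 0.47 and an interval of -0.18 to 1.11. These intervals include no change as well as changes of nearly 2-fold or more, so counts of this size settle neither. When libraries were scaled to total counts, AFB5 had a log2 change of 0.93 (edgeR adjusted p = 0.0177). Scaled to MIR genes, AFB3 was called lower with a log2 change of -1.31 (edgeR adjusted p = 0.0169), where the median of all genes was -0.77 in place of -0.02. AFB4 had 4, 4 and 1 counts and AFB1 had 1, 0 and 4, and the count of 0 allows up to 3 counts, or 1.06 CPM.

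In the main fit, the effect of losing RDR6 was called different between the decay mutant and wild type for the 3 best-paired receptors. The TIR1 and AFB2 calls were not stable over the alternatives. The interaction sets the log2 change between triple and double mutant against that between rdr6-11 and Col-0 by subtraction. It was called below 0 for 31.7% of all genes and 16.1% of protein-coding genes tested. The interaction was called below 0 for AFB3, AFB2 and TIR1, again 3 of 4 tested receptors, with AFB3 favoured by the filter. For AFB3 it was -2.26 ± 0.56 (SE, edgeR adjusted p = 0.000747), for TIR1 -1.28 ± 0.51 (SE, adjusted p = 0.0327) and for AFB2 -1.22 ± 0.46 (SE, adjusted p = 0.0243). For AFB5 it was -0.02, with a 95% interval of -0.91 to 0.87.

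AFB3 kept its interaction call in all but 1 of 21 alternatives, the scaling to MIR genes (log2 -1.35, edgeR adjusted p = 0.0662). TIR1 and AFB2 did not. The TIR1 call was lost in 12 of the alternatives, among them DESeq2 (-1.11, adjusted p = 0.182) and, with edgeR, leaving out Col-0 replicate 1 (-1.01, adjusted p = 0.110), Col-0 replicate 3 (-1.31, 0.0525), ein5-1 ski2-3 replicate 2 (-1.20, 0.0501) or 3 (-1.18, 0.0536), rdr6-11 replicate 2 (-0.78, 0.254) or 3 (-1.26, 0.0614), or triple-mutant replicate 1 (-1.06, 0.0830). The AFB2 call was lost in 7, among them DESeq2 (-1.08, adjusted p = 0.109) and, with edgeR, leaving out Col-0 replicate 2 (-0.97, adjusted p = 0.0802), rdr6-11 replicate 2 (-0.92, 0.149) or rdr6-11 replicate 3 (-1.16, 0.0688). Without the joined ein5-1 ski2-3 sample the interaction was -0.85 for TIR1 (edgeR adjusted p = 0.224) and -0.89 for AFB2 (adjusted p = 0.134).

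AFB2 alone was called between the triple mutant and rdr6-11. It was higher in the triple mutant by 2.64-fold, with a log2 change of 1.40 ± 0.35 (SE, edgeR adjusted p = 0.00103) and no overlap between the 3 libraries on each side. It was 1 of 4 tested receptors, and 20.4% of all genes and 28% of protein-coding genes tested were called higher. TIR1 had a log2 change of 0.59 (95% interval -0.13 to 1.31), AFB3 one of -0.14 (-1.05 to 0.77) and AFB5 one of -0.07 (-0.64 to 0.49). The difference between AFB2 and the other receptors was not tested. Scaled to MIR genes, which were lower in the triple mutant than in rdr6-11, all 4 tested receptors were called higher, with log2 changes of 2.77 for AFB2, 1.96 for TIR1, 1.30 for AFB5 and 1.22 for AFB3; the median of all genes was then 1.50 in place of 0.12.

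Against Col-0, no receptor was called in the triple mutant by edgeR, where 18.3% of all genes and 15.7% of protein-coding genes tested were called in either direction. None of the 4 had an unadjusted p under 0.05 and DESeq2 also called 0. The log2 changes were 0.69 for TIR1 (95% interval -0.11 to 1.49), 0.39 for AFB5 (-0.27 to 1.06), 0.20 for AFB2 (-0.43 to 0.82) and -0.71 for AFB3 (-1.61 to 0.20). Scaled to MIR genes, TIR1, AFB2 and AFB5 were called higher, with log2 changes of 1.31, 0.83 and 1.02 against a median of 0.65 for all genes. AFB4, not tested, had 5, 6 and 8 counts against 2 in every Col-0 library, which did not overlap. AFB5, with 15, 18 and 16 counts against 10, 7 and 11, did not overlap either. AFB4 in the triple mutant also did not overlap rdr6-11. The share of all genes without overlap is not given here.

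**Figure D3:**
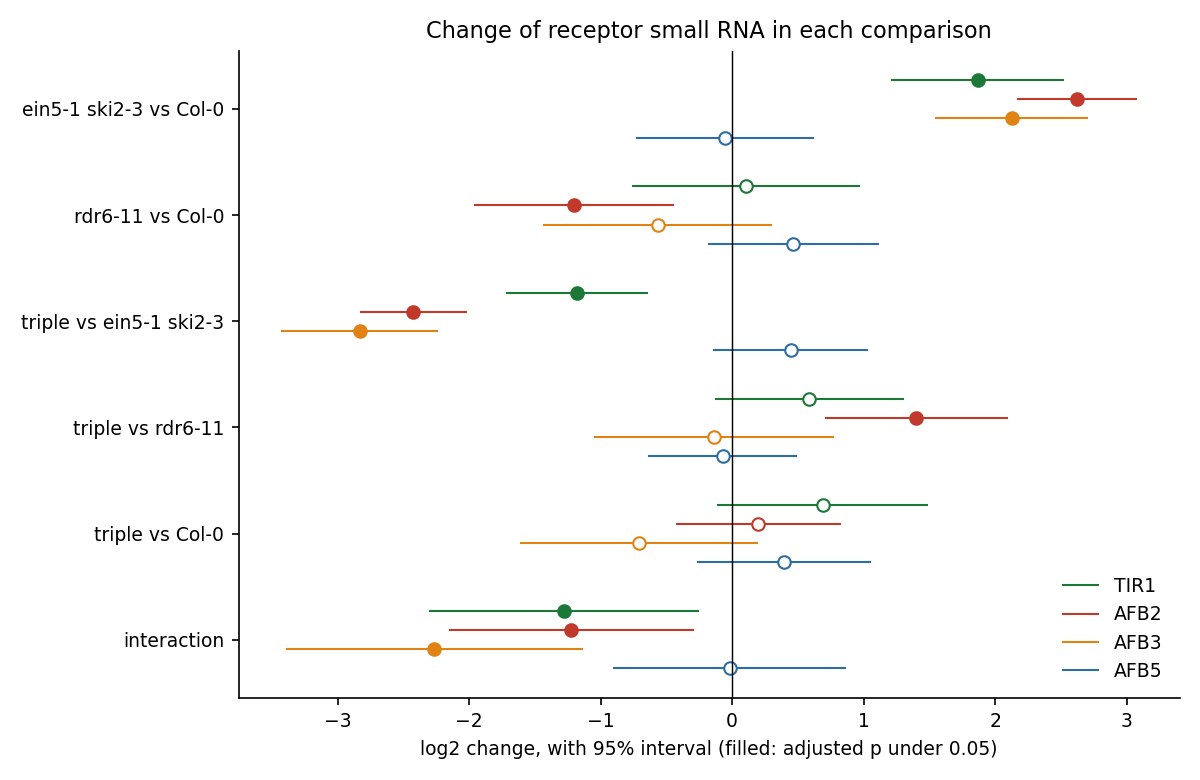
Log2 changes of the 4 tested receptors are plotted with 95% intervals for 5 pairwise comparisons and the interaction; triple is rdr6-11 ein5-1 ski2-3 and filled points have an adjusted p under 0.05. AFB2, AFB3 and TIR1 lie right of 0 in ein5-1 ski2-3 against Col-0 and left of 0 in the triple mutant against ein5-1 ski2-3, and every AFB5 interval spans 0.

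Per length of exon, the order of the receptors changed between genotypes. In Col-0 the levels were 2.14 ± 0.98 CPM per kb for AFB2, 1.82 ± 0.27 for AFB5, 1.54 ± 0.34 for AFB3 and 1.21 ± 0.47 for TIR1 (SD, n = 3), which did not differ beyond the spread of neighbours. AFB1 and AFB4 followed with 0.574 ± 0.32 and 0.342 ± 0.03 CPM per kb. Each Col-0 library held 2 counts of AFB4, so this SD leaves out counting error. The summed AFB4 level was 0.994 CPM, with a 95% Poisson counting interval of 0.365 to 2.16. In the double mutant AFB2 led with 13.3 ± 1.7 CPM per kb, followed by AFB3 with 6.76 ± 0.55, TIR1 with 4.24 ± 0.83, AFB5 with 1.71 ± 0.31, AFB4 with 0.913 ± 0.01 and AFB1 with 0.445 ± 0.30 (SD, n = 2). From AFB2 down to AFB5 each step in the double mutant was larger than the SDs of both neighbours. The small SD of AFB4 there again leaves out counting error, with a 95% Poisson interval of 1.78 to 3.82 CPM.

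In rdr6-11 the level per kb was highest for AFB5, at 2.53 ± 0.67 CPM per kb (SD, n = 3). TIR1 with 1.27 ± 0.56, AFB3 with 1.04 ± 0.44 and AFB2 with 0.935 ± 0.25 CPM per kb lay within each other's spread. AFB4 and AFB1 had 0.357 ± 0.20 and 0.257 ± 0.32 CPM per kb. With all 3 mutations AFB2 and AFB5 led with 2.50 ± 0.11 and 2.41 ± 0.19 CPM per kb, which did not differ beyond their spread. TIR1 followed with 1.92 ± 0.56, AFB3 with 0.943 ± 0.33, AFB4 with 0.810 ± 0.19 and AFB1 with 0.538 ± 0.25 CPM per kb (SD, n = 3). In the triple mutant AFB3 and AFB4 did not differ beyond their spread, while the steps from TIR1 to AFB3 and from AFB4 to AFB1 were larger than the SDs of both neighbours. The 95% Poisson counting intervals of AFB4 (1.42 to 3.69 CPM) and AFB1 (0.597 to 2.29 CPM) overlapped, so counts of this size do not settle that last step.

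The make-up of receptor small RNA shifted with these changes. TIR1, AFB2 and AFB3 together held 61.3% to 69.0% of the receptor counts in the Col-0 libraries and 86.8% to 89.9% in the double mutant. The rdr6-11 libraries gave 37.8% to 57.1%, and those of the triple mutant 56.1% to 62.3%. The double mutant stood apart from the other genotypes, and this share does not depend on how libraries are scaled. AFB2 alone held 51.4% of the 796 receptor counts in the double mutant, 30.5% of 118 in Col-0, 15.7% of the 140 of rdr6-11 and 28.8% of the triple mutant's 191. The share of AFB5 was 6.16% in the double mutant, 23.7% in Col-0, 39.3% in rdr6-11 and, for the triple mutant, 25.7%.

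**Figure D4:**
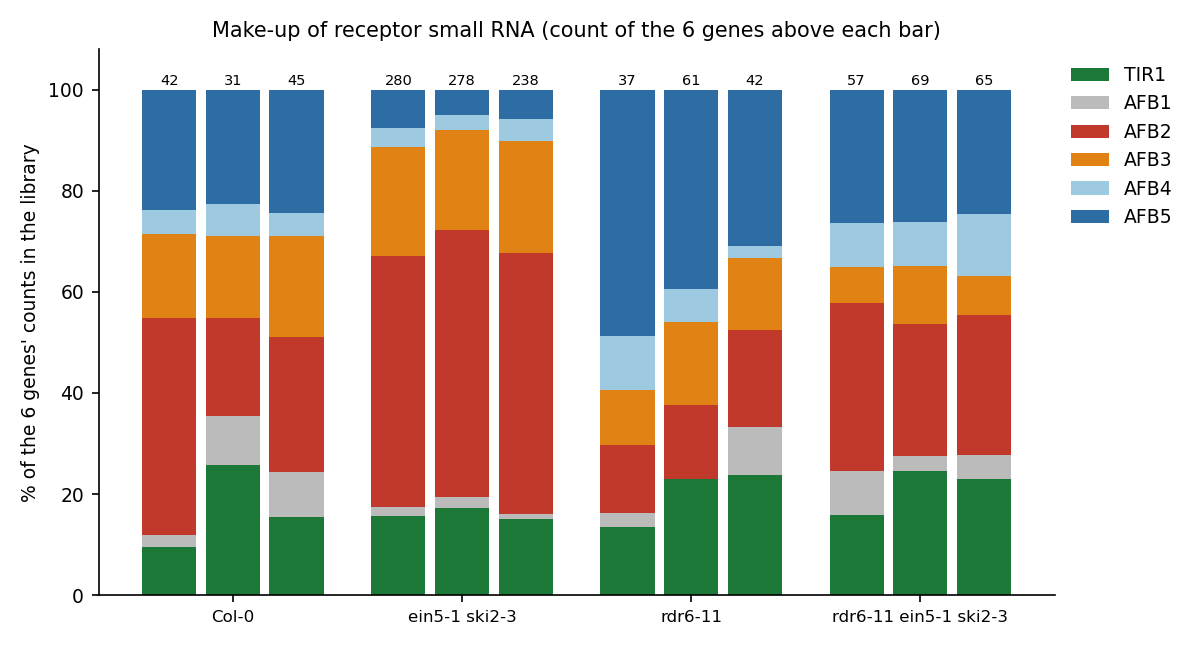
Each bar is a library, and its segments give the percentage of the 6 receptor genes' counts that came from each gene, with the summed count above the bar. TIR1, AFB2 and AFB3 hold 86.8% to 89.9% in the ein5-1 ski2-3 libraries and at most 69.0% in any other.

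The 4 tested receptors differed in how far their levels moved together over the 11 samples. On log2(CPM + 1) values, Pearson's r was 0.88 between AFB2 and AFB3, 0.77 between TIR1 and AFB3 and 0.76 between TIR1 and AFB2. AFB5 had r = -0.22 with TIR1, -0.43 with AFB2 and -0.44 with AFB3. These values are descriptions, since the samples share genotypes and depth.

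Small RNA of the MIR393 genes was measured in the same libraries and did not follow that of the receptors in all genotypes. MIR393B (AT3G55734) had 144, 114 and 132 counts in Col-0, 454, 424 and 327 in the double mutant, 529, 505 and 492 in rdr6-11. The triple mutant gave 271, 203 and 205 counts. All mutant libraries were above all Col-0 libraries in raw counts. The levels were 64.5 ± 3.96 CPM in Col-0, 105 ± 24.1 in the double mutant, 178 ± 9.54 in rdr6-11 and, in the triple mutant, 84.6 ± 15.7 (SD, n = 3, 2, 3 and 3).

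In rdr6-11 over Col-0, where 21.3% of all genes were called higher, MIR393B rose with a log2 change of 1.46 ± 0.12 (SE, edgeR adjusted p = 3.93e-14), and MIR393A (AT2G39885) with 1.48 ± 0.13 (SE, adjusted p = 2.10e-13). This is the genotype in which AFB2 was called lower. Over the 22 alternatives the rise in rdr6-11 went down to 0.70 for MIR393B and 0.71 for MIR393A, and it stayed called. Scaled to MIR genes, the median of all genes in rdr6-11 over Col-0 was -0.77 in place of -0.02. How far MIR393 differs from other MIR genes was not tested. In the double mutant over Col-0, where AFB2, AFB3 and TIR1 rose, MIR393B had a log2 change of 0.72 ± 0.13 (SE, edgeR adjusted p = 1.28e-05) and MIR393A one of 0.84 ± 0.14 (SE, adjusted p = 1.88e-06). Both calls rest on ein5-1 ski2-3 replicates 1 and 2, without which the log2 changes were 0.23 (edgeR adjusted p = 0.207) and 0.36 (adjusted p = 0.0615).

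In the triple mutant against the double, MIR393B had a log2 change of -0.33 (edgeR adjusted p = 0.0338) and MIR393A one of -0.45 (adjusted p = 0.00557), which became 0.14 and 0.0057 without those 2 libraries. The calls were also lost for both genes without rdr6-11 replicate 2 (adjusted p = 0.422 and 0.120) or triple-mutant replicate 3 (0.154 and 0.0568), and for MIR393B without ein5-1 ski2-3 replicate 1 (0.0980) or triple-mutant replicate 2 (0.177). In the triple mutant against rdr6-11 the log2 change was -1.08 for both genes, where 25.2% of all genes were called lower (edgeR adjusted p = 1.11e-10 for MIR393B and 3.81e-10 for MIR393A). Scaled to MIR genes these were 0.31 and 0.30, with adjusted p of 0.0608 and 0.0732. Against Col-0 both were called higher in the triple mutant, with a log2 change of 0.39 each (edgeR adjusted p = 0.0288 and 0.0440), and both calls were lost with DESeq2 (adjusted p = 0.0946 and 0.134), or without Col-0 replicate 2 (0.0956 and 0.126), Col-0 replicate 3 (0.119 and 0.179) or triple-mutant replicate 1 (0.326 and 0.437). For MIR393A the call was also lost without rdr6-11 replicate 1 (0.0519) or 3 (0.0563).

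Set against MIR393B within each library, which removes the scaling, TIR1, AFB2 and AFB3 together gave 16.7 to 21.2 counts per 100 MIR393B counts in Col-0 and 53.5 to 64.8 in the double mutant. For rdr6-11 the ratio was 2.65 to 6.53, and for the triple mutant 11.8 to 21.2. It was thus highest in every double-mutant library and lowest in every rdr6-11 library, and the triple mutant overlapped Col-0. The 3 receptors had 14, 33 and 24 counts in rdr6-11, which overlapped the 29, 19 and 28 of Col-0. MIR393B itself was higher in rdr6-11, so the low ratio there does not measure the receptors alone.

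**Figure D5:**
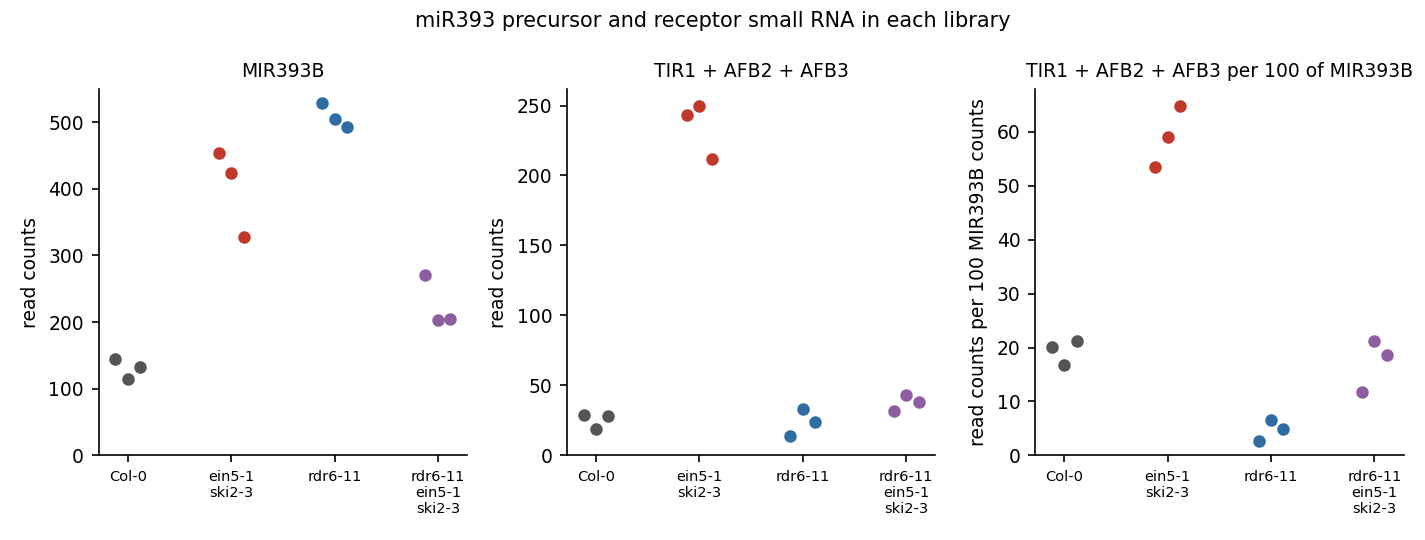
The panels give, for each library by genotype, the read counts of MIR393B, the summed read counts of TIR1, AFB2 and AFB3, and the latter per 100 MIR393B counts. MIR393B is highest in rdr6-11 (492 to 529 counts), whereas the 3 receptors and the ratio are highest in ein5-1 ski2-3.

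Of 8 genes for SCF subunits and their regulators, which act with the receptors, 3 were tested in the double mutant against Col-0. CAND1, the exchange factor of cullin ligases, was called lower, which is 1 of 3 against 18.8% of all genes. CAND1 had 80, 75 and 72 counts in Col-0 and 58, 64 and 69 in the double mutant, and fell with a log2 change of -1.10 ± 0.16 (SE, edgeR adjusted p = 1.59e-07). With total counts it was -0.28 (adjusted p = 0.129). Between the double and the triple mutant, CAND1 had a log2 change of 0.76 (edgeR adjusted p = 0.000191), or 0.32 with total counts (adjusted p = 0.0992).

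Of 5 other hormone F-box genes, 3 were tested in the double mutant against Col-0 and 2 were higher, beside 30.5% of all genes. EBF1, which targets the ethylene factor EIN3 for degradation, had 25, 20 and 31 counts in Col-0 and 202, 176 and 166 in the double mutant, without overlap. Its log2 change was 1.96 ± 0.18 (SE, edgeR adjusted p = 1.39e-13). EBF1 was also called in the triple mutant against the double, with a log2 change of -0.72 (adjusted p = 7.37e-05), though not without the joined ein5-1 ski2-3 sample (-0.39, adjusted p = 0.109). COI1, the jasmonate receptor and a relative of TIR1, had 2, 3 and 5 counts in Col-0 and 16, 17 and 12 in the double mutant, with a log2 change of 1.28 ± 0.50 (SE, edgeR adjusted p = 0.0307). The COI1 call was lost in 11 of 22 alternatives, among them leaving out Col-0 replicate 1 or 2, any ein5-1 ski2-3 library or rdr6-11 replicate 2 (edgeR adjusted p = 0.0581 to 0.138) and leaving out the joined sample (adjusted p = 0.445). EBF2, the relative of EBF1, was called higher in the triple mutant than in the double, as were 14.4% of all genes, with a log2 change of 0.55 (edgeR adjusted p = 0.0275), and lost that call in 6 alternatives, among them leaving out ein5-1 ski2-3 replicate 1 or triple-mutant replicate 1 or 2 (adjusted p = 0.0545 to 0.115).

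Of the Aux/IAA repressor genes, 25 were counted and 6 were tested in the double mutant against Col-0, of which 1 was higher and 1 lower, where 18.8% of all genes were called lower. IAA2, an early auxin-response gene, had 8, 7 and 2 counts in Col-0 and 36, 42 and 43 in the double mutant, with a log2 change of 1.96 ± 0.33 (SE, edgeR adjusted p = 1.78e-06). IAA8 had 16, 14 and 14 counts against 15, 14 and 15, with a log2 change of -0.85 ± 0.34 (SE, edgeR adjusted p = 0.0355). With total counts it was -0.033 (edgeR adjusted p = 0.941). The IAA8 call was lost in 9 of 22 alternatives, among them leaving out any Col-0 library or ein5-1 ski2-3 replicate 2 (adjusted p = 0.0510 to 0.0880). Without the joined sample its log2 change was -1.06. Between the double and the triple mutant IAA8 had a log2 change of 1.12 (edgeR adjusted p = 0.00273; 0.68 with total counts, adjusted p = 0.0723) and IAA2 one of -0.72 (adjusted p = 0.0170), the latter lost in 7 alternatives, among them leaving out ein5-1 ski2-3 replicate 3, rdr6-11 replicate 2, triple-mutant replicate 3 or the joined sample (adjusted p = 0.0862 to 0.191). The list's median log2 change in the double mutant against Col-0 was 0.21, beside 0.29 over all genes, a median that was 0.045 without ein5-1 ski2-3 replicate 3 or without the joined sample and 0.089 without rdr6-11 replicate 2.

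The ARF genes, which encode the transcription factors freed when Aux/IAA proteins are degraded, included genes with large changes. Of the 15 counted, 6 were tested, and 3 were higher in the double mutant than in Col-0, beside 30.5% of all genes. These were ARF6 and ARF8, known targets of miR167, and ARF10, a known target of miR160. Their log2 changes were 6.70 ± 0.22, 4.51 ± 0.40 and 4.92 ± 0.42 (SE, edgeR adjusted p = 3.94e-31, 6.25e-14 and 1.27e-14). ARF8 and ARF10 had at most 5 counts in any library outside the double mutant and passed the filter through it alone. The filter thus favoured their calls in both comparisons with the double mutant, and the list's median there. All 6 tested ARF genes were lower in the triple mutant than in the double, beside 27% of all genes, with log2 changes of -5.18 for ARF6, -3.69 for ARF8 and -5.69 for ARF10. In both comparisons these 3 log2 changes were larger in size than that of any tested receptor, a difference that was not tested. The list's median in that comparison was -3.01, beside -1.80 for the 4 tested receptors and -0.21 for all genes.

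The TAS loci, the known sources of RDR6-dependent trans-acting siRNAs, give a scale for loss of RDR6. All 8 were called lower in rdr6-11 than in Col-0, beside 15.3% of all genes, with a median log2 change of -6.56. The 4 tested receptors, AFB5 included, had a median of -0.23 and all genes one of -0.02. The TAS loci had 8 to 3143 counts per Col-0 library. These receptors had 4 to 18. Their 95% intervals in rdr6-11 against Col-0 did not reach a fall of the TAS size. The lower ends were -1.96 for AFB2, -1.44 for AFB3, -0.76 for TIR1 and -0.18 for AFB5. A fall of their siRNA part alone was not measured, since siRNAs and fragments of mRNA cannot be told apart here. All 8 TAS loci were again lower in the triple mutant than in the double, beside 27% of all genes, with a median of -5.38.

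The genes whose levels were most like those of each tested receptor were taken by Pearson's r of log2(CPM + 1) over the 11 samples, among 2964 genes with at least 10 CPM in 1 genotype or more. For AFB2 they were NSP5, a nitrile specifier protein gene (r = 0.98), AT5G20700 (0.96) and CAF1b, a deadenylase gene (0.96). For AFB3 they were ARF10 (0.96), the glutathione transferase gene GSTF6 (0.95) and AT1G63870 (0.95). For TIR1 they were the receptor-like kinase gene AT1G09970 (0.95), the ferrochelatase gene FC1 (0.94) and the purine permease gene PUP14 (0.93). NSP5, CAF1b, ARF10, GSTF6, AT1G63870, FC1 and PUP14 reached 10 CPM in the double mutant alone. The limit of 10 CPM thus favoured genes that are high there, and these r values are descriptions only. The number of genes with r above 0.95 was 9 for AFB2, 4 for AFB3, 1 for TIR1 and 0 for AFB5, whose nearest was the mitochondrial gene ATMG00270 (0.79), followed by AT3G15450 (0.77) and AT2G07731 (0.75).

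Overlap with other genes touches AFB1, AFB3 and AFB4, since the strand of the reads is not given in the sources used here. AFB4 overlaps the antisense gene AT4G24380 over 644 bases, and that gene had 2 counts in Col-0, 44 in the double mutant, 7 in rdr6-11 and 14 for the triple mutant, summed over 3 libraries. AFB3 overlaps AT1G12810 over 63 bases, with 5, 17, 4 and 8 counts in the same order, and AFB1 overlaps AT4G03180 over 51 bases, with 3, 11, 4 and 5. Antisense long non-coding RNA genes also lie across AFB1 and AFB3 and are not among the genes counted. No annotated gene overlaps TIR1, AFB2 or AFB5.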

How the data were processed

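The authors deposited whole-number counts of reads per gene for 12 small RNA libraries. CASAVA 1.8.2, the aligners Bowtie2 and Bowtie, the test DESeq and the build TAIR10 are listed in the submitters' processing notes, with no roles given; read assignment, strand and read length are not given in the sources used here. Per the file headers, the table also holds the authors' fold ratios and adjusted p-values for ein5-1 ski2-3 relative to Col-0 and to the triple mutant. A count can thus hold siRNAs and fragments of mRNA, which cannot be told apart.

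The tests used edgeR 4.0.16 in R 4.3.3, on 11 samples in 1 fit of all genotypes, with TMM scaling, filterByExpr (minimum count 10, minimum total 15) and 2-sided quasi-likelihood F tests. The SE is the log2 change divided by the square root of F. Replicates 1 and 2 of ein5-1 ski2-3 were summed because their protein-coding counts agree within sampling noise (chi-square p = 0.137) and their mean chi-square over all genes was under 1.1. P-values measure the spread between the libraries that the labels call biological replicates. Counting intervals are exact Poisson and cover counting error only, since the reads carry no molecular identifiers. Of 30926 genes, 30403 matched the RefSeq TAIR10.1 annotation, whose nuclear chromosomes are those of TAIR10 and which gave names, coordinates and sequences; the table itself has no coordinates. Windows paired with miR393 were searched without gaps. The test was checked on simulated data.

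The receptors, gene lists and tests were chosen with earlier results of these data known. Named genes were the receptors, both MIR393 genes, at most 3 called genes per list with the largest change in each of the 2 comparisons with the double mutant, and 3 genes most like each tested receptor; the TAS loci are given as counts. The alternatives were other scalings (RLE, total counts, MIR genes, or rRNA, tRNA and organelle genes left out), no filter, DESeq2 1.42.0, all 12 libraries, only the groups compared, leaving out each library or the summed sample, and a replicate block. Same-numbered libraries did not deviate together (18 pairs, r from -0.08 to 0.04), so the numbers pair nothing.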

Additional observations from a re-analysis of the deposited data

Results flagged for a closer look

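The effect of losing RDR6 in ein5-1 ski2-3 differed from its effect in wild type by the interaction test of edgeR for 5 genes described above. Of all genes tested, 31.7% were called below 0. The TIR1 and AFB2 calls were lost in 12 and 7 of 21 alternatives. MIR393A and MIR393B share their mature 5p strand, so they are not independent results. The difference on the log2 scale was -2.26 for AFB3, -1.22 for AFB2 and -1.28 for TIR1. For the microRNA genes it was -1.93 for MIR393A and -1.79 for MIR393B (edgeR adjusted p = 3.44e-12 and 5.43e-12), which rose in rdr6-11 over Col-0 and did not rise in the triple mutant over ein5-1 ski2-3. Over the 21 alternatives this difference ran from -2.83 to -0.99 for MIR393A and from -2.70 to -0.86 for MIR393B, and it stayed called. Groups of 3 libraries are too small to be searched for single outlying samples.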

How the results depend on the processing

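The number of receptors called in ein5-1 ski2-3 against Col-0 and in the triple mutant against ein5-1 ski2-3 stayed within 1.5 times of 3 under every alternative run. In rdr6-11 against Col-0 it was 1, and became 2 scaled to MIR genes, 0 without the filter, 0 with only the groups compared (where 1 receptor passed the filter), and 0 to 1 over the libraries left out. In the triple mutant it became 4 against rdr6-11 and 3 against Col-0 scaled to MIR genes, where the median log2 changes of all genes were 1.50 and 0.65. Against rdr6-11, AFB3 and AFB5 were below that median. The share of all genes called under each alternative is not given here, so these counts of receptors have no background beside them. The interaction called 3, and 0 scaled to MIR genes, 1 without rRNA, tRNA and organelle genes, 1 with DESeq2 and 1 to 3 over the libraries left out. Directions turned as follows. With total counts, AFB5 had a log2 change of 0.76 and EBF2 one of 0.73 in ein5-1 ski2-3 against Col-0. Scaled to MIR genes, the triple mutant against rdr6-11 gave 1.22 for AFB3, 1.30 for AFB5, 0.30 for MIR393A and 0.31 for MIR393B. Over the libraries left out, the triple mutant against the double gave -0.64 to 0.0057 for MIR393A and -0.49 to 0.14 for MIR393B, the highest without ein5-1 ski2-3 replicates 1 and 2. The cause was not tested. The median log2 change of all genes in ein5-1 ski2-3 against Col-0 was 0.29, and 1.10 with total counts, 0.72 scaled to MIR genes, 0.17 without rRNA, tRNA and organelle genes, 0.16 with DESeq2, 0.15 with RLE, 0.090 with only the groups compared, 0.089 without rdr6-11 replicate 2, and 0.045 without ein5-1 ski2-3 replicate 3 or without the joined sample. With the replicate number as a block on 12 libraries, the receptors called were 3 in ein5-1 ski2-3 against Col-0, 1 in rdr6-11 against Col-0, 3 in the triple mutant against the double, 1 against rdr6-11, 0 against Col-0 and 3 in the interaction, so the block changed no count. At 4 to 18 counts of TIR1, AFB2 or AFB3 per Col-0 library, changes under 2-fold were mostly not detectable.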
